A study of Mus musculus with 12 samples.

Results

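The 10 genes described here encode the machinery that cuts proteins into peptides, carries the peptides into the endoplasmic reticulum and displays them on MHC class I molecules. They are Psmb8, Psmb9 and Psmb10 (the inducible catalytic subunits of the immunoproteasome), Tap1 and Tap2 (the peptide transporter), Tapbp (tapasin), B2m (the class I light chain), H2-K1 and H2-D1 (class I heavy chains) and Nlrc5 (a transactivator of class I genes). They were chosen by name, with earlier results of these data known. They were found through the accessions of the array probes: 12 of the 55681 probes on the array belong to them. All 10 were among the 29795 genes or unnamed features that were bright enough to be tested, and the probe used for each was well above background on all 12 arrays. By the RefSeq gene table, 7 of them lie on chromosome 17 (Psmb8, Psmb9, Tap1, Tap2, Tapbp, H2-K1 and H2-D1), the chromosome of Nkx2-5. Psmb10 and Nlrc5 lie on chromosome 8 and B2m on chromosome 2.

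Single-colour arrays measured total RNA from the apex of the heart of male C57BL/6J mice at 15 weeks of age. Every mouse carried 1 knock-in allele of Nkx2-5, which encodes a homeodomain transcription factor of heart muscle, beside 1 wild-type allele (genotypes control/+, I183M/+, I183P/+ and delta/+). In the control allele residue 183 stays isoleucine and the gene is kept wild type, I183M and I183P replace that residue with methionine or proline, and delta is a deletion of the whole gene. Each group has 3 arrays, and since nothing in the labels states that replicates were separate animals, every p-value measures the spread between these 12 samples. The question put by the design is how the heart's RNA in each mutant line compares with that of the control line.

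In nucleated cells the proteasome degrades proteins all the time, and in cells exposed to interferon the constitutive catalytic subunits Psmb5, Psmb6 and Psmb7 are replaced by Psmb8, Psmb9 and Psmb10. The peptides released pass through the Tap1-Tap2 transporter and are loaded, with the help of tapasin, onto a heavy chain paired with B2m, and the complex then travels to the cell surface, where CD8 T cells read it. Cardiomyocytes are known for a low level of class I, while endothelial cells and immune cells carry much more. In heart apex tissue that holds all of these cells, more cells of a type and more RNA per cell cannot be told apart.

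Array quality touches every comparison with the control line. The share of spots that stood well above background was 99.1% for control replicate 1, against 51.2% to 75.2% for the other 11 arrays, and its median processed intensity was 602 against 34.8 to 92.5 there. Delta replicate 2 (75.2%, median 82.2) and I183M replicate 1 (72.85%, median 92.5) came next, and the share on every remaining array was at most 60.5%. Of the 10 genes, 8 read lowest among the controls on control replicate 1, all except Tap1 and Nlrc5, so results are given with and without that array. Nkx2-5 itself read 4.45 and 4.56 on control replicates 2 and 3, 3.11 on control replicate 1, 4.52 to 4.63 in I183M, 4.51 to 4.74 in I183P and 3.77 to 3.92 in delta, in log2 units relative to each array's 75th percentile. The delta arrays lay below every other array except control replicate 1, and the adjusted p of limma's test of delta against control was 0.866 with all arrays and 0.0647 without that array. All 11 cardiomyocyte markers were well above background on all 12 arrays. The arrays sat on 2 slides: control, I183M and I183P replicates 1 and 2 on one, and I183P replicate 3 and delta on the other, so delta and control, and delta and I183M, share no slide.

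Promoter sequence was found for 8 of the 10 genes in a RefSeq table of build GRCm38.p6, in windows from 250 bases before to 50 bases after the start of transcription. The 5 windows printed belong to genes whose levels did not overlap between I183P and I183M, and they show how these genes are laid out: Psmb9 and Tap1 start 226 bases apart on opposite strands, so their windows share 275 bases, and 1 window shows both. Capitals mark matches on either strand to GAAANNGAAA (the core of an interferon-stimulated response element), TTCNNNGAA (a gamma-activated site), GGGNNNNCCC (paired NF-kB half-sites), CCAAT (the CCAAT box, ATTGG on the other strand) and TNAAGTG (the NK2-type element). The first 3 of these were searched because they are the classical elements of interferon- and NF-kB-responsive genes, and matches that overlap run together. Each sequence runs 5′ to 3′ in the direction of the gene.
Tap1, with Psmb9 on the opposite strand (chr17:34187306-34187605, plus strand): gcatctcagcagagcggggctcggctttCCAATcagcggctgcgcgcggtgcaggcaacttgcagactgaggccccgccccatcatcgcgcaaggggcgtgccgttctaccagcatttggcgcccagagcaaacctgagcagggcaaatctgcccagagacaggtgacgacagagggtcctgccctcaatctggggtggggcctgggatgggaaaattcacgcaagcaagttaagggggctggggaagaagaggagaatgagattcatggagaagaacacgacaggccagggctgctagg
Psmb8 (chr17:34197945-34198244, plus strand): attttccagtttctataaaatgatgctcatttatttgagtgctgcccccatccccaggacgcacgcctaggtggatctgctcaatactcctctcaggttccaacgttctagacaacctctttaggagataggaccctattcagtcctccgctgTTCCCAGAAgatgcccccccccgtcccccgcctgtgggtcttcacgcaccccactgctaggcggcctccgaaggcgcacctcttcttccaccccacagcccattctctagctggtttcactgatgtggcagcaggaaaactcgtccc
B2m (chr2:122147437-122147736, plus strand): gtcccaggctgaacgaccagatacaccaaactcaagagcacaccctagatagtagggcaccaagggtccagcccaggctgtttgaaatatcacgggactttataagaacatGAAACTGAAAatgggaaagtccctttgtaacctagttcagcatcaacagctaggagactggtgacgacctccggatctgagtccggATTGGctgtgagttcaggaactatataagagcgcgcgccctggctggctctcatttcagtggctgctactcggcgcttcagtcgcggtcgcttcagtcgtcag
H2-K1 (chr17:34000298-34000597, minus strand): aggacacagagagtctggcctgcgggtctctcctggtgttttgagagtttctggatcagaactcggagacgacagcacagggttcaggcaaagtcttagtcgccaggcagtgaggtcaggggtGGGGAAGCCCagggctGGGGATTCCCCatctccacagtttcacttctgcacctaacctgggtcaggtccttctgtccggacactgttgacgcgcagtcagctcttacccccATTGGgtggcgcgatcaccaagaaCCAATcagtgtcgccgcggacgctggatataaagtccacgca
H2-D1 (chr17:35262844-35263143, plus strand): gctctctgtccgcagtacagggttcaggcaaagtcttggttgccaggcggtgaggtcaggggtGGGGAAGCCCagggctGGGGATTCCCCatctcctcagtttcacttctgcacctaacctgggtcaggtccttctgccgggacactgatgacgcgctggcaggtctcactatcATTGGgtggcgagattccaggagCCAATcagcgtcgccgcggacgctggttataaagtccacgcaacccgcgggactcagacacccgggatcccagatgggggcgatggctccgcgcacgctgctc

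The B2m window holds a match to GAAANNGAAA, at position -139 from the start, and 3.44% of the 32851 promoter windows in the table hold one. The Psmb8 window holds the only gamma-activated site match, at position -97, a motif found in 8.3% of all windows. The H2-K1 and H2-D1 windows both hold the same 3 NF-kB matches, 2 of them overlapping. They begin at -127, -111 and -110 in the printed H2-K1 window and at -187, -171 and -170 in H2-D1. A second H2-K1 window, from another start of transcription, holds them at -141, -125 and -124. Such a match is held by 11.9% of all windows. CCAAT boxes, present in 37.4% of all windows, were found in Psmb9, Tap1, Tapbp, B2m, H2-K1 and H2-D1. The NK2-type element was found in the Tapbp window alone among the 8 genes and in 11.5% of all windows. The Psmb10 window held none of these letters. Only these exact patterns were searched, so a window without a match may still hold a variant of the same element. A match of letters is a description and not a binding site.

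Among the immunoproteasome subunits, Psmb9 stood out by its separation between I183P and the other lines. Its levels, in log2 units relative to each array's 75th percentile as for every level that follows, were 0.70, 0.94 and 1.19 on control replicates 1 to 3, 0.85, 1.46 and 1.27 in I183M, 1.91, 1.91 and 2.09 in I183P, and 1.80, 1.50 and 1.54 in delta. All 3 I183P arrays were above all 9 others, and all 3 delta arrays were above all control and I183M arrays. The group means were 0.94 ± 0.25 in control, 1.19 ± 0.32 in I183M, 1.97 ± 0.10 in I183P and 1.61 ± 0.16 in delta (SD, n = 3 each).

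Psmb8, the subunit that takes the place of Psmb5, read 0.52, 1.12 and 1.31 in control, 1.21, 1.52 and 1.37 in I183M, 1.73, 1.74 and 1.78 in I183P, and 1.62, 1.45 and 1.76 in delta. Here too I183P lay above every control and I183M array, with a spread of 0.03 (SD, n = 3), and the delta arrays lay above every control array but overlapped I183M. Psmb10, which takes the place of Psmb7 and lies on chromosome 8, differed less. It read 3.94, 5.12 and 5.12 in control, 5.00, 5.06 and 5.09 in I183M, 5.29, 5.25 and 5.08 in I183P, and 5.35, 5.29 and 5.23 in delta. The delta arrays were above all control and I183M arrays, while I183P replicate 3 lay within the I183M range.

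The transporter genes gave different pictures. Tap2 was tight in I183P, at 3.28, 3.28 and 3.26, above the 1.81, 3.05 and 3.00 of control and the 2.78, 2.98 and 3.06 of I183M, and above the 3.18, 2.91 and 3.19 of delta. Tap1 was among the dimmer signals. It read -1.92, -2.96 and -2.73 in control, -2.60, -3.06 and -3.17 in I183M, -2.54, -2.38 and -1.69 in I183P, and -2.37, -2.81 and -2.60 in delta. Tap1 was the one gene of the 10 that read highest among the controls on control replicate 1, and it was printed as 10 spots per array whose log2 values had an SD of 0.0401 to 0.291 within an array. Tapbp, which bridges the transporter and the heavy chain, did not separate the mutant lines from each other, at 2.52 to 3.05 in I183M, 2.72 to 2.96 in I183P and 2.85 to 2.93 in delta; its controls read 1.61, 2.56 and 2.71, below the I183P and delta arrays.

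The class I molecule itself is built from B2m and a heavy chain. B2m read 4.47, 5.36 and 5.86 in control, 5.46, 5.52 and 5.21 in I183M, 5.76, 5.95 and 6.24 in I183P, and 5.93, 5.58 and 6.10 in delta. H2-K1 read 3.59, 4.64 and 5.28 in control, 4.66, 5.03 and 4.62 in I183M, 5.22, 5.33 and 5.69 in I183P, and 5.40, 4.93 and 5.60 in delta. H2-D1 read 3.55, 4.52 and 4.89 in control, 4.42, 4.82 and 4.43 in I183M, 4.95, 4.91 and 5.13 in I183P, and 4.82, 4.53 and 5.09 in delta. In all of these 3 genes the I183P arrays were above the I183M arrays without overlap, while control replicate 3 reached to, or close to, the lowest I183P array. Class I heavy chain genes are close copies of each other, so the signal of an H2-K1 or H2-D1 probe may include other heavy chains. A second H2-K1 probe gave the same order of groups, with a difference of 0.49 between I183P and I183M (SE 0.34) against 0.65 (SE 0.40) on the brighter probe when both probes were fitted.

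Nlrc5, which drives transcription of class I genes, B2m, Tap1 and Psmb9 in lymphoid cells, read -1.37, -1.83 and -1.11 in control, -1.58, -1.77 and -2.45 in I183M, -1.29, -0.77 and -0.05 in I183P, and -0.69, -0.85 and -1.16 in delta. The I183M arrays were below all I183P and all delta arrays, and the control arrays overlapped I183M, I183P and delta. This reading depends on the probe: a second Nlrc5 probe, well above background on only 5 of the 12 arrays, differed by 0.07 between I183P and I183M (SE 0.44).

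**Figure D1:**
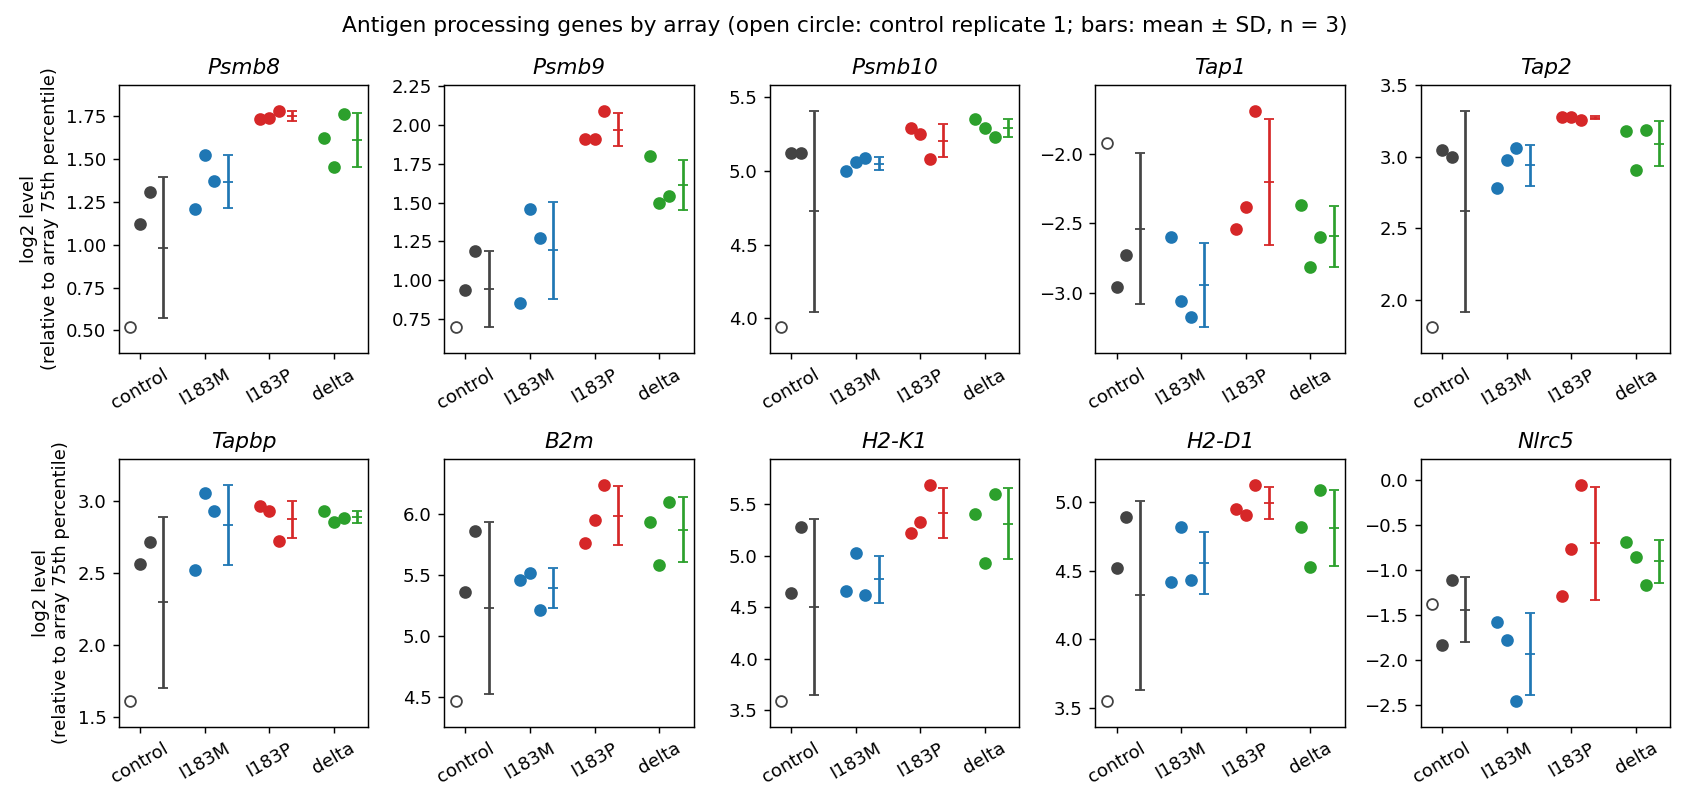
Level of each of the 10 genes on every array, as log2 of the processed intensity relative to the array's 75th percentile, by group (points: arrays; open circle: control replicate 1; bars: mean ± SD, n = 3). The I183P points lie above all I183M points in every panel except Psmb10 and Tapbp, and control replicate 1 is the lowest control in every panel except Tap1 and Nlrc5.

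I183P against I183M compares 2 amino acid replacements of the same residue and does not use the control arrays except in the shared estimate of the spread. All 10 genes read higher in I183P, as did 35.4% of all features. The differences were 1.23 for Nlrc5 (SE 0.36), 0.78 for Psmb9 (SE 0.22), 0.74 for Tap1 (SE 0.33), 0.65 for H2-K1 (SE 0.39), 0.58 for B2m (SE 0.33), 0.44 for H2-D1 (SE 0.33), 0.38 for Psmb8 (SE 0.23), 0.33 for Tap2 (SE 0.31), 0.16 for Psmb10 (SE 0.30) and 0.04 for Tapbp (SE 0.29). Psmb9 was thus 1.71-fold and B2m 1.5-fold higher in I183P, as ratios of group means on the log scale. In 8 of the 10 the 3 I183P arrays were above the 3 I183M arrays, all except Psmb10 and Tapbp, and 5.79% of all features showed such a separation upward. The median difference was 0.51, against -0.09 over all 29795 features. Because the 10 were chosen with earlier results of these data known, these shares describe the list and are not a test of it.

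None of the 10 passed the adjusted threshold of 0.05 in that comparison: limma's adjusted p was 1 for each, and 0% of all features passed. An unadjusted p under 0.05 was reached by Nlrc5 and Psmb9 (0.00717 and 0.00635), where 1.28% of all features reached it. Without control replicate 1 the differences stay the same by construction but the shared spread is smaller, with SE 0.17 for Psmb9 and 0.12 for Psmb8. Then 8 of the 10 had an unadjusted p under 0.05, beside 9.51% of all features, and the adjusted p ran from 0.506 for Psmb9 to 0.938 for Tapbp. In a fit that weights each array by its own spread, 7 of the 10 passed, with adjusted p from 0.013 for Psmb9 to 0.0465 for Tap2 (limma with array weights), and so did 6.66% of all features; control replicate 1 had a weight of 0.012 and I183M replicate 3 one of 6.79. Within the slide that holds all I183M arrays and I183P replicates 1 and 2, the median difference was 0.42, with 0.71 for Psmb9, 0.90 for Nlrc5 and 0.11 for Tapbp.

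**Figure D2:**
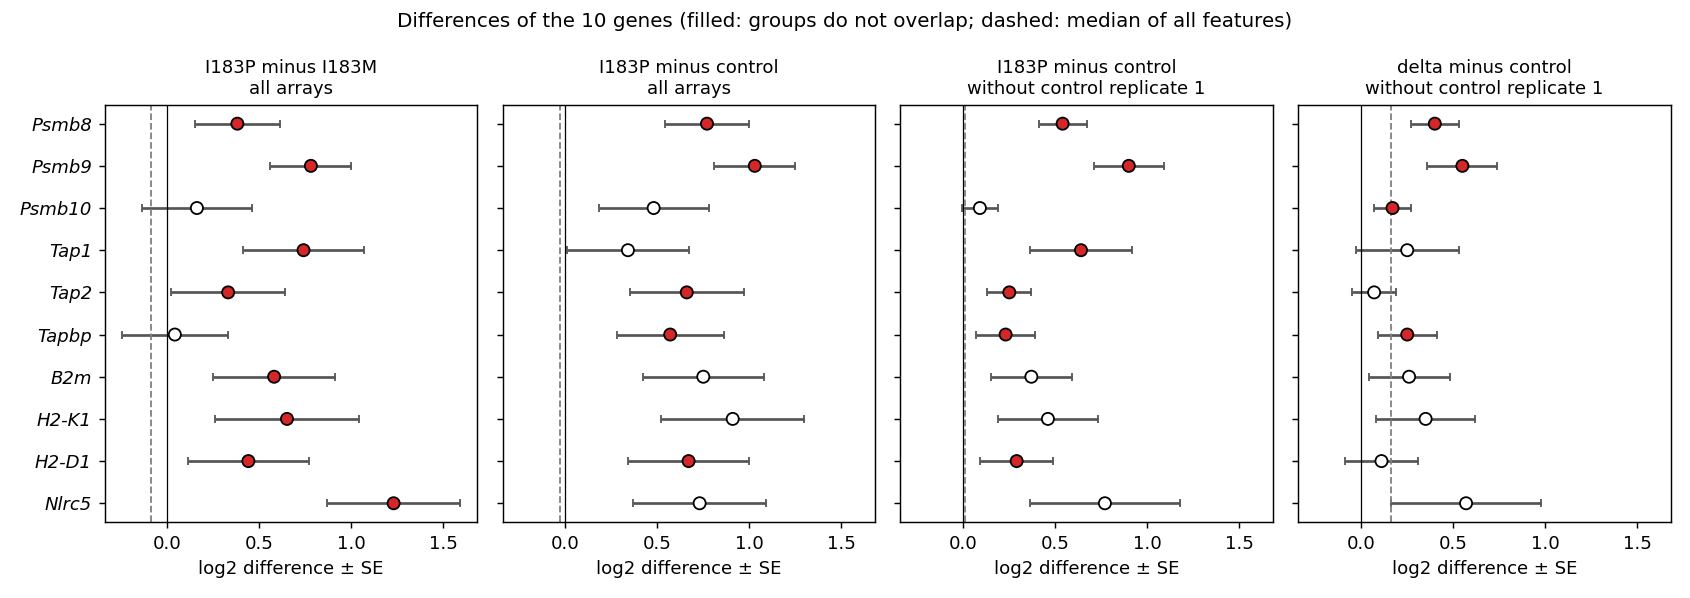
log2 difference ± SE of each of the 10 genes in I183P minus I183M (all arrays), I183P minus control (all arrays and without control replicate 1) and delta minus control (without control replicate 1); filled points are genes whose groups do not overlap, and the dashed line is the median over all features. All points lie at or above 0, Nlrc5 (1.23) and Psmb9 (0.78) lie farthest to the right in the first panel, and the I183P minus control points lie closer to 0 without control replicate 1, except Tap1 and Nlrc5.

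Against the control line, all 10 genes read higher in I183P, as did 48.8% of all features. Psmb9 differed by 1.03 (SE 0.22), a 2.04-fold difference, and was the gene of the 10 with the smallest p (unadjusted 0.00109, limma's adjusted p 0.557). The others differed by 0.34 (Tap1) to 0.91 (H2-K1), with adjusted p from 0.563 to 0.566. None of the 10 passed, and 0.00336% of all features did. The arrays did not overlap for Psmb8, Psmb9, Tap2, Tapbp and H2-D1, 5 of the 10, where 7.55% of all features separated upward. The median difference was 0.70, against -0.03 over all features.

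Without control replicate 1 the difference of I183P from control was smaller in 8 of the 10 genes, and larger in Tap1 and Nlrc5. The median difference of I183P from control then was 0.41, against 0.01 over all features, and all 10 differences were above 0, as were 51.9% of all features. Psmb9 stood at 0.90 (SE 0.19, limma's adjusted p 0.253), Nlrc5 at 0.77 (SE 0.41), Tap1 at 0.64 (SE 0.28) and Psmb8 at 0.54 (SE 0.13, adjusted p 0.316). The rest ran from 0.46 for H2-K1 down to 0.09 for Psmb10. Tap1 joined the genes without overlap, which made 6 of 10 beside 14.6% of all features. After quantile normalization of background-corrected signals, a scale on which control replicate 1 is drawn to the distribution of the other arrays, the median was 0.41 with all arrays, and Psmb9 read 10.89, 10.33 and 10.49 in control and 11.17, 11.22 and 11.43 in I183P.

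In delta, the heterozygous deletion, 9 of the 10 genes read higher than in control, as did 52.2% of all features, with a median of 0.58 against 0.04 over all features, and Tap1 stood at -0.06 (SE 0.33). None of the 10 passed, and 0.0738% of all features did. Psmb9 differed by 0.67 (SE 0.22, limma's adjusted p 0.471) and Psmb8 by 0.63 (SE 0.23, adjusted p 0.547). Psmb8, Psmb9, Psmb10 and Tapbp did not overlap, 4 of 10 beside 10.5% of all features. Without control replicate 1 all 10 were above 0, as were 66.7% of all features, and the median was 0.26 against 0.16. In that fit Psmb9 differed by 0.55 (SE 0.19) and Psmb8 by 0.40 (SE 0.13), and the same count of 4 did not overlap beside 22.4% of all features. With the slide as a block as well, the median was 0.02. Since delta and control share no slide, that fit links them only through I183P, and a slide difference and a line difference cannot be told apart between delta and control from the arrays alone. After quantile normalization of background-corrected signals, with all arrays, delta differed less from control. The median was 0.23 for the 7 genes on chromosome 17 and 0.13 for the other 3, against 0.59 and 0.56 in the fit reported. Psmb9 overlapped on that scale, at 10.33 to 10.89 in control and 10.85 to 11.12 in delta, and so did Psmb10.

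The differences of I183M from control ran from -0.50 for Nlrc5 to 0.54 for Tapbp with all arrays. None of the 10 passed (0% of all features did), and none separated upward from control, where 2.36% of all features did. The median difference was 0.26 with all arrays, against 0.11 over all features. It was -0.09 without control replicate 1, against 0.09 over all features, so its direction rests on that array. Without it, 3 genes stood above 0 (Psmb8 at 0.15, Psmb9 at 0.13 and Tapbp at 0.20), where 63.8% of all features did. The other 7 stood below 0, down to -0.46 for Nlrc5.

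Between the other mutant lines, delta read higher than I183M in all 10 genes and in 47.3% of all features, with a median of 0.30 against -0.02 over all features. None passed (0% of all features did), and B2m, Nlrc5, Psmb9 and Psmb10 did not overlap, 4 of 10 beside 11% of all features; the difference was 1.04 for Nlrc5 (SE 0.36) and 0.42 for Psmb9 (SE 0.22). Delta against I183P had a median of -0.16 against 0.14 over all features. None passed there either (0% of all features did), and Psmb9 at -0.36 (SE 0.22) and Tap2 at -0.18 (SE 0.31) were lower in delta without overlap, where 6.07% of all features separated downward.

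Placed in order by group mean without control replicate 1, I183P was highest in 8 of the 10 genes and delta in Psmb10 and Tapbp. I183M was lowest in 7 genes and control in Psmb8, Psmb9 and Tapbp. Neighbours in that order often overlapped: delta and I183P overlapped in 8 of the 10 genes. Averaged over the 10 genes after each was centred on its mean over 11 arrays, the arrays stood at -0.33 and -0.03 in control, -0.31, -0.12 and -0.35 in I183M, 0.14, 0.23 and 0.44 in I183P, and 0.21, -0.05 and 0.18 in delta, and control replicate 1 at -0.90. I183P replicate 3, the I183P array on the second slide, was the highest of all arrays in this average.

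**Figure D3:**
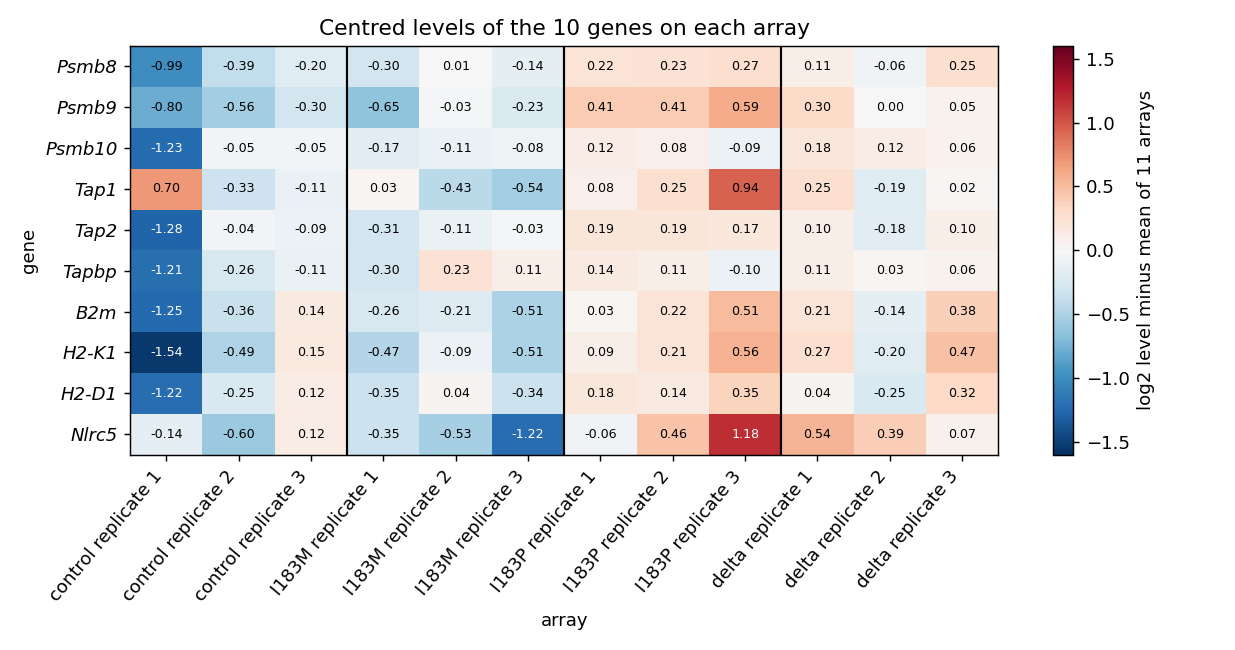
Centred log2 level of each of the 10 genes (rows) on each of the 12 arrays (columns), as the difference from the gene's mean over the 11 arrays other than control replicate 1; red is above and blue below that mean, and black lines divide the groups. The I183P columns are red except Psmb10 and Tapbp on replicate 3 and Nlrc5 on replicate 1, the highest single value is Nlrc5 on I183P replicate 3, and control replicate 1 is blue in every row but Tap1.

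The genes also varied together from array to array. Over the 11 arrays other than control replicate 1, the Pearson r of each gene with the mean of the other 9 was 0.933 for H2-K1, 0.927 for B2m, 0.868 for Psmb8, 0.866 for Psmb9, 0.854 for H2-D1, 0.798 for Nlrc5, 0.78 for Tap1, 0.729 for Tap2, 0.481 for Psmb10 and 0.277 for Tapbp. These values describe arrays that share group, slide and scaling. Of all other named genes, those most like the mean of the 10 over the same arrays were Irgm2 (r 0.971) and Igtp (r 0.944), both interferon-inducible GTPases, Wdfy1 (r 0.962), Fam160b1 (r 0.936), Stat2 (r 0.924), which carries interferon signals to the nucleus, and the class I genes H2-Q8 (r 0.951), H2-T23 (r 0.925) and H2-Q6 (r 0.922). Irgm2 read 2.53 to 3.03 in I183P, above the 1.94 to 2.24 of I183M, and overlapped the 2.25 to 2.60 of delta.

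Psmb8 and Psmb9 separated I183P from I183M, and Psmb10 did not; the other proteasome genes were read in the same way, with no test between subunits. The constitutive partners Psmb5, Psmb6 and Psmb7 differed between I183P and I183M by 0.00, -0.02 and -0.12, and Psmb5 read 7.25, 7.29 and 7.10 in I183P against 7.18, 7.21 and 7.24 in I183M. Of the other 11 subunits of the 20S core, none separated upward and 5 separated downward (Psma3, Psma6, Psma7, Psmb1 and Psmb2), with a median of -0.11 and a background of 18.6% of all features downward. Their median lay between -0.11 and -0.08 under 4 other scalings and at 0.45 when arrays were centred on their median, which lifts the median of all features to 0.46 and that of the constitutive subunits to 0.54. The 8 genes of the PA28 activator and of proteasome assembly had a median of -0.03, with none separated upward and Psmg2 separated downward (-0.15, SE 0.25). No gene of these lists passed the adjusted threshold.

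Later steps of the pathway were mixed. The 10 genes of peptide trimming and class I folding had a median of 0.01 between I183P and I183M, and Erap1, the aminopeptidase that trims peptides in the endoplasmic reticulum, was the only one to separate upward (0.26, SE 0.24), and Thop1, a cytosolic peptidase, the only one to separate downward (-0.24, SE 0.29). Of 14 other class I and class I-like genes measured, 9 separated upward and none downward, with a median of 0.38, beside 5.79% of all features upward and 18.6% downward. H2-Q8 differed by 1.25 (SE 0.35), H2-Q6 by 0.50 (SE 0.32) and H2-T23 by 0.48 (SE 0.32), while Cd1d1, which presents lipids, stood at -0.20 (SE 0.35). H2-T23 read 4.47, 4.46 and 4.61 in I183P against 3.88, 4.23 and 3.98 in I183M. These heavy chains share sequence with H2-K1 and H2-D1, so their probes are not independent readings.

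Of 27 measured genes of interferon signalling and class I regulation, 9 separated upward and 2 downward between I183P and I183M, beside 5.79% and 18.6% of all features, and the median was 0.02. Stat2 read 1.18, 1.22 and 1.54 in I183P against 0.71, 0.84 and 0.87 in I183M. Irf8, a transcription factor of myeloid cells, read 1.09, 0.87 and 1.21 against 0.60, 0.55 and 0.46. The receptor chain Ifnar1 read 0.71, 0.70 and 0.82 against 0.39, 0.47 and 0.55. Socs1, of the same list, overlapped, at -1.83, -2.28 and -2.06 in I183P against -2.08, -2.25 and -2.05 in I183M. Jak1, Jak2, Irf3 and Irf7, named after their values were seen, differed by -0.04, -0.02, 0.02 and 0.02. Interferon gamma itself (Ifng) overlapped between the lines, at a difference of -0.13 (SE 1.16).

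Position on chromosome 17 was compared with the rest of the genome. Of 860 other named genes on chromosome 17, 7.67% separated upward between I183P and I183M, beside 7.4% of 16388 other named genes elsewhere, and the medians were -0.06 and -0.05. The 73 other measured genes of the MHC region on that chromosome had a median of 0. Of them, 7 separated upward and 11 downward, beside 5.79% and 18.6% of all features. The 7 genes of the 10 on chromosome 17 had a median of 0.44, and B2m, Psmb10 and Nlrc5, which lie elsewhere, stood at 0.58, 0.16 and 1.23. Against control with all arrays, the share of other chromosome 17 genes separated upward was 9.53% in I183P, 7.44% in delta and 1.63% in I183M. Elsewhere in the genome the shares were 9.73%, 10.3% and 2.97%.

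Markers of endothelial and immune cells were read beside these genes, and their part in the result was not tested. Between I183P and I183M, 6 of 10 endothelial markers separated upward and none downward, with a median of 0.21, beside 5.79% of all features upward and 18.6% downward. The log2 of their summed level ran from 7.06 to 7.23 in I183P, 6.77 to 6.90 in I183M, 6.82 to 6.92 in control without replicate 1 and 6.96 to 7.08 in delta. The vascular endothelial growth factor receptor Kdr read 4.93, 4.79 and 4.99 in I183P against 4.36, 4.38 and 4.48 in I183M, while Pecam1 stood at -0.11 (SE 0.22). T and NK cell markers had a median of 0, with 2 of 16 separated upward and 3 downward, and only 7 of the 16 were well above background on all arrays; their log2 summed level was 3.34 to 3.46 in I183P, 3.31 to 3.35 in I183M, 2.98 to 3.27 in control without replicate 1 and 3.54 to 3.62 in delta.

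Of 12 macrophage and monocyte markers measured, Cx3cr1 alone separated upward, at 1.17, 0.41 and 1.29 in I183P against -0.78, -1.22 and -0.97 in I183M, and the list's median was 0.10. The log2 of the macrophage markers' summed level was 6.50 to 6.58 in I183P and 6.33 to 6.53 in I183M. B cell markers separated upward in 3 of 6 and downward in 1, and only 2 of them were well above background on all arrays. Over all features, 5.79% separated upward and 18.6% downward, and the same shares apply to every list in this paragraph. Cd79b, a part of the B cell receptor, read -0.29, -0.97 and -0.83 in I183P against -1.46, -1.56 and -1.61 in I183M. Cardiomyocyte markers (11 genes) had a median of -0.04 and fibroblast markers (7 genes) of 0.04. None separated upward in either list, and 1 separated downward in each, Pln (-0.35, SE 0.39) and Tcf21 (-0.30, SE 0.20). Only 2 of the 11 cardiomyocyte markers lay above 0, beside 35.4% of all features.

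**Figure D4:**
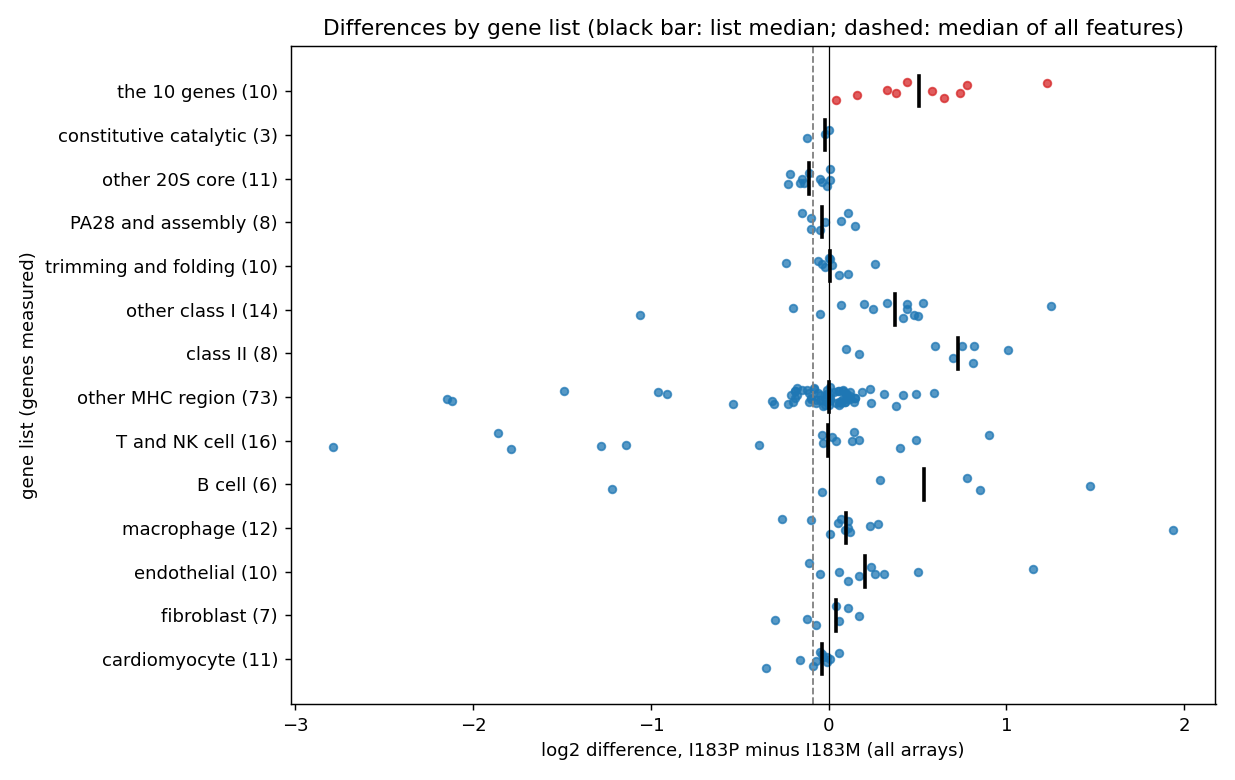
log2 difference of every measured gene in 14 gene lists between I183P and I183M (points: genes; black bar: list median; dashed line: median of all features; vertical jitter has no meaning). The 10 genes (median 0.51) and the class II list (0.72) lie to the right of 0 throughout, while the constitutive proteasome and other 20S lists lie close to 0 or to its left.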

How the data were processed

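Agilent Feature Extraction 11.0.1.1 read the scans, per the file headers, on a probe layout of genome build mm9, and the deposited intensity values per spot were not normalized between arrays. A table deposited by the authors holds processed values of the same arrays on a log2 scale, as judged from its range; its array medians lay between 6.885 and 6.94 and its rank correlation with the intensities between 0.961 and 0.998, and its centring and exact steps are not stated, so it served as an alternative. The submitters' processing notes name Feature Extraction and limma without versions.

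Here, log2 of the processed intensity was taken, and control and outlier spots were left out. Over the 31 spots of the 10 genes and all 12 arrays, 7 single readings were outliers. Repeated spots were averaged per probe, and values were set relative to the 75th percentile of their array. Accessions were named through RefSeq genes (assembly GRCm38.p6), whose coordinates were not used; promoter sequences come from a RefSeq table of the same assembly. Kept were 41591 probes that 3 or more of the 12 arrays showed well above background, and a gene was read from its brightest such probe. Differences were fitted with lmFit and eBayes of limma 3.58.1 (R 4.3.3) over all 12 arrays and 29795 features, with Benjamini-Hochberg adjusted p under 0.05 as threshold; scripts were tested on simulated data. Every adjusted p comes from limma. The number of arrays limits the precision.

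The members and gene lists were chosen with earlier results of these data known. Named are all 10 members, Psmb5, Psmb6, Psmb7, Nkx2-5, up to 4 genes of each list (6 of the class I-like list) with the smallest p in I183P against control without control replicate 1, and the 8 genes most like the members; Jak1, Jak2, Irf3, Irf7, Ifng, Erap1, Pecam1, Psma7 and Ciita were named after their values were seen. Background correction, normalization, filters, probe rule, the authors' table, weights, slide, replicate numbers and each array were varied.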

Additional observations from a re-analysis of the deposited data

How the results depend on the processing

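Each of the 6 comparisons was run under 27 or 28 alternatives, and no member passed in any of them except the 7 that passed in I183P against I183M with array weights, a fit whose weight estimation warned of incomplete convergence. The direction of I183P against control held in all 10 genes under every alternative, and that of I183P against I183M in all but Tapbp, which stood at -0.03 with array weights and ran from -0.12 to 0.14 when single arrays were left out. In delta against control, Tap1 was above 0 with the array median (0.32), array weights (0.20), the authors' table (0.31), normexp (0.04), quantile normalization (0.60), both together (0.23) and the replicate block without control replicate 1 (0.21), and ran from -0.27 to 0.25 when single arrays were left out. H2-D1 stood at -0.03 in the authors' table and -0.02 with normexp and quantile normalization. With the slide as a block and without control replicate 1, B2m stood at -0.12, H2-D1 at -0.09, H2-K1 at -0.06 and Nlrc5 at -0.41 (-0.44 with all arrays). In delta against I183M, Tap1 stood at -0.43 with the slide as a block, with and without control replicate 1. Tapbp stood there at -0.04 with array weights and at -0.02 in the authors' table and with normexp and quantile normalization, with and without control replicate 1, and ran from -0.10 to 0.16 when single arrays were left out. The cause of these shifts was not tested.

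Medians of the 10 genes moved by more than their spread as follows. Centring on the array median gave 1.07 for I183P against I183M, 1.49 for I183P against control, 0.45 for delta against I183M and -0.56 for delta against I183P; it moves the median of all features too, to 0.46 for I183P against I183M and 0.76 for I183P against control. Array weights gave -0.17 for I183M against control and 0.25 for I183P against control. The slide as a block, with and without control replicate 1, gave 0.15 for delta against I183M and -0.34 for delta against I183P, the latter also within the second slide; without control replicate 1 it gave 0.02 for delta against control. Counts over all features for delta against control were 22 in the fit reported and ran from 0 to 303 otherwise: 303 with normexp and quantile normalization without control replicate 1, 77 with array weights, 45 among features well above background on all arrays, 27 with normexp and quantile normalization, 16 in the authors' table, 13 with no filter or with the replicate block without control replicate 1, 12 with normexp, 11 with quantile normalization, 10 with the mean of all probes, and 0 with the slide as a block (with and without control replicate 1), the array median or only the compared groups. Leaving out single arrays gave 0 to 51: 51 without control replicate 1, 26 without I183P replicate 3, 0 without control replicate 3 or delta replicate 1, 1 without control replicate 2, and 2 to 12 without any other. In the other comparisons the fit reported gave 0 or 1, and array weights gave the highest counts: 21 for I183M against control, 113 for I183P against control, 1985 for I183P against I183M, 423 for delta against I183M and 35 for delta against I183P. The combinations that leave out control replicate 1 together with another change were chosen after seeing the data.

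Same-numbered replicates deviated together in 6 of 18 pairs (r above 0.1, range -0.814 to 0.79). Control and I183M did so at replicates 1 to 3 (r 0.79, 0.558 and 0.502). In both groups replicate 1 had the largest share of spots well above background (99.06% and 72.85%). All of these arrays share a slide, but control and I183P replicates 1 and 2, on the same slide, stood at r -0.0534 and -0.315. The reason was not tested. Control and delta ran from -0.814 to 0.209, so the numbers were not taken to pair the samples across all lines. With the replicate block, 0 of the 10 genes passed in any comparison, the median was 0.70 for I183P against control and 0.51 for I183P against I183M, and 7 of all features passed for delta against control.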

Other observations

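MHC class II genes, which present peptides to CD4 T cells and mark antigen-presenting cells, lay in the same direction as the class I genes between I183P and I183M. All 8 measured class II genes read higher in I183P and 6 separated without overlap, with a median difference of 0.72; 35.4% of all features read higher and 5.79% separated upward. None passed limma's adjusted threshold. Cd74, the invariant chain, read 4.16, 4.22 and 4.17 in I183P, 3.39, 3.66 and 3.25 in I183M, 3.86, 3.57 and 3.53 in delta, and 2.79, 3.33 and 3.88 in control. H2-Ab1 read 5.38, 5.62 and 5.93 in I183P against 4.66, 5.11 and 4.69 in I183M. H2-DMb1, which helps load class II molecules, read 0.59, 0.74 and 1.08 against -0.23, 0.49 and 0.06. Ciita, the class II transactivator, lay the other way, at -1.49 (SE 1.00) in I183P minus I183M. Against control, 6 of 8 class II genes read higher in I183P with all arrays (median 0.77), beside 48.8% of all features (median -0.03). Without control replicate 1 all 8 did (median 0.63), beside 51.9% of all features (median 0.01). In delta 5 of 8 read higher with all arrays (median 0.21), beside 52.2% of all features (median 0.04). Without control replicate 1, 7 of 8 did in delta (median 0.14), beside 66.7% of all features (median 0.16).

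T and NK cell markers in delta against control depended on control replicate 1, where their mean centred level was 1.80 against -0.55 and -0.20 on the other controls. With all arrays 9 of 16 lay above control (52.2% of all features), 3 of them without overlap (10.5% of all features). The median was 0.15, against 0.04 over all features. Without that array 16 of 16 did (66.7% of all features), 8 of them without overlap (22.4% of all features). The median then was 0.61, against 0.16 over all features. Only 7 of the 16 markers were well above background on all arrays. Within delta, their mean centred level was 0.84 on replicate 2, against -0.07 and 0.14 on replicates 1 and 3. Delta replicate 2 also had the largest share of spots well above background after control replicate 1 (75.24%), and its part in these counts was not tested. Cd3e, a chain of the T cell receptor complex, read 0.72, 0.70 and 0.67 in delta and 0.17, 0.00 and 0.21 in control. Control and delta share no slide, so slide and line cannot be told apart there.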
